A study of Mus musculus with 6 samples.

Results

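Genes that the tumour suppressor p53 switches on to stop the cell cycle or start cell death were followed, together with the stress cytokine gene Gdf15, in EO771 cells given recombinant lipocalin-2 (LCN2). They were taken by symbol from a table of 19832 genes, and all 10 were found: Mdm2, Cdkn1a, Gadd45a, Pmaip1, Trp53inp1, Bbc3, Ccng1, Phlda3, Bax and Gdf15. EO771 is an established mouse mammary tumour line, and LCN2, a lipocalin released by many cells, captures iron-bound siderophores. One group holds 3 libraries of EO771 cells treated with recombinant LCN2, and the other 3 libraries of untreated EO771 control cells. The labels give no dose, exposure time or medium and do not say that replicates were separate cultures. The p-values therefore weigh the difference between the groups against the variation of libraries within them, and that variation may be technical.

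p53 is a transcription factor that DNA damage and other stresses stabilise, and it induces genes that halt division, repair DNA or permeabilise mitochondria. One of its targets, Mdm2, encodes the ubiquitin ligase that degrades p53 and so closes a feedback loop. A separate route, the integrated stress response, works through the transcription factor ATF4 and its partner CHOP (gene Ddit3), and it induces some of the same genes without needing p53. From textbook knowledge, Gdf15, Gadd45a, Pmaip1 and Bbc3 were counted as shared between p53 and ATF4 or CHOP (4 genes), and Mdm2, Cdkn1a, Trp53inp1, Ccng1, Phlda3 and Bax as p53-only (6 genes). The comparison asks whether these groups differ in how they move with LCN2.

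All 10 genes passed the filter for testing, a mean of at least 1 FPKM (a level per transcript length and sequencing depth; this unit was inferred from the values) over the 6 libraries. With LCN2, 6 of them rose, 1 fell and 3 did not pass the test. A gene was called at an adjusted p under 0.05 in limma with Benjamini-Hochberg adjustment over the 10309 genes tested, of which 21.5% were called, 11.8% higher and 9.73% lower. The shared genes had 3 rises and 0 falls among 4, and their log2 fold changes had a median of 1.00. The p53-only genes had 3 rises and 1 fall among 6, and a median of 0.18. Over all tested genes the median was 0.0008. At an unadjusted p under 0.05 in limma, 4 shared genes were higher and 0 lower, and 3 p53-only genes were higher and 1 lower. The share of all tested genes at that threshold was not counted, here or for the lists below. Such p-values were common, however. In limma the gene Ep300 had an unadjusted p of 0.054 and an adjusted p of 0.13, which requires many genes with p-values that low. The counts at the unadjusted threshold are therefore not read as a result about either group. Of the targets, 2 were called when LCN2 replicate 1 was left out, and 4 each for LCN2 replicate 3 and control replicate 3. Over all genes, 2216 were called, against 268 when LCN2 replicate 1 was left out, 478 for LCN2 replicate 3, 656 for control replicate 1 and 459 for control replicate 3. In these bulk samples a change in the share of cells that express a gene and a change in RNA per cell cannot be told apart.

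The libraries had column sums of 391569 to 410808 FPKM, and the number of reads behind them is unknown. The epithelial keratin genes Krt8, Krt18 and Krt19 were abundant, at 178 to 769 FPKM, while the cadherin gene Cdh1 was at or under 0.209 FPKM and the progesterone receptor gene Pgr was listed at 0. Of the 6 epithelial line markers tested, Krt18 was called higher and Krt8, Krt19 and Erbb2 lower with LCN2. Of markers of other cell types, Ptprc of leukocytes was at or under 0.0868 FPKM, the mast cell protease genes Cpa3 and Tpsb2 were listed at 0, and the macrophage gene Cd68 was between 7.48 and 9.53 FPKM (adjusted p = 0.15 between groups). The fibroblast gene Pdgfra was between 3.44 and 4.64 FPKM (adjusted p = 0.24 in limma). Col1a1 of fibroblasts reached 0.134 FPKM and Pecam1 of endothelium 0.613 FPKM. The transcript of p53 itself, Trp53, was at 113, 119 and 110 FPKM in LCN2 libraries, against 114, 118 and 114 FPKM in control libraries. It did not pass the test (log2 fold change 0.04, 95% confidence interval -0.04 to 0.13, adjusted p = 0.42), and the sign of its change turned without scaling. Among all genes the balance of calls depended on scaling, with 1213 higher and 1003 lower after TMM scaling, against 693 higher and 1680 lower with values as deposited and 950 higher and 1308 lower after scaling to column sums.

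The sequence around the start sites was read for both kinds of element. RefSeq windows on GRCm38.p6 were used for 8 of the 10 genes. Each ran over 300 bases, 250 before an annotated start and 50 after it. Windows of Pmaip1 and Trp53inp1 were not searched, so neither motif can be judged for these genes. The windows were searched on both strands for the p53 decamer, the 10-base repeat unit of the p53 response element, and for TGATGNAA, the composite element that ATF4 binds together with C/EBP proteins. The decamer was in the windows of 4 of 5 p53-only genes (Mdm2, Cdkn1a, Ccng1 and Bax) and of 1 of 3 shared genes (Gadd45a), which is 5 of 12 windows, against 8.36% of all 32851 windows in the table. TGATGNAA was in the windows of 0 of the 8 genes, and in 3.97% of all windows. With 12 windows, 0 matches cannot be told apart from that share. These are matches of letters, not tested binding sites. The windows of Gdf15 and Gadd45a, the shared genes with the largest changes, of the feedback gene Mdm2, of the arrest gene Cdkn1a and of Ccng1, the gene that fell, are shown 5′ to 3′, with decamers in capitals.
Gdf15 (chr8:70632407-70632706, minus strand): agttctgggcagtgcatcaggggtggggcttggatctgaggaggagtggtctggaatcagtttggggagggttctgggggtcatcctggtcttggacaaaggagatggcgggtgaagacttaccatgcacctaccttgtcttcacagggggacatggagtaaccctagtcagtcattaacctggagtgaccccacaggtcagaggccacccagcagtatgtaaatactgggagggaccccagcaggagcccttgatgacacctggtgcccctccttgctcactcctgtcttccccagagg
Gadd45a (chr6:67037358-67037657, minus strand): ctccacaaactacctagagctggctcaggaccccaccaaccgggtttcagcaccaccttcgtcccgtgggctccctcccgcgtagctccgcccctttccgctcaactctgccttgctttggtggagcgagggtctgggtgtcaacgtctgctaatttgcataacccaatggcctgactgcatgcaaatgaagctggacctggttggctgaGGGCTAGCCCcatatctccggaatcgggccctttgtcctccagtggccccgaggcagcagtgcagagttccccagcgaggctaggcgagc
Mdm2 (chr10:117710709-117711008, minus strand): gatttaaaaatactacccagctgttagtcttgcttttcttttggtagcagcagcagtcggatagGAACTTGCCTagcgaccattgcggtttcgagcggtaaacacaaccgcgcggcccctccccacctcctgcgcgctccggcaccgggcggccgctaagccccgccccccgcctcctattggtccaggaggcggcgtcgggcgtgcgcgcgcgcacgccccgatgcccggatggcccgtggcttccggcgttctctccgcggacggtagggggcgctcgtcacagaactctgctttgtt
Cdkn1a (chr17:29090729-29091028, plus strand): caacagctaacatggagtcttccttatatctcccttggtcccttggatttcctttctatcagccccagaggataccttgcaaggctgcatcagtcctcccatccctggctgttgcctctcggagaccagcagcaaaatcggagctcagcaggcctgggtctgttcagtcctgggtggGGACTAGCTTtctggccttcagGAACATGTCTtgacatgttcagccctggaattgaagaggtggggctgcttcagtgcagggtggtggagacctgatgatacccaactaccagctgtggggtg
Ccng1 (chr11:40755237-40755536, minus strand): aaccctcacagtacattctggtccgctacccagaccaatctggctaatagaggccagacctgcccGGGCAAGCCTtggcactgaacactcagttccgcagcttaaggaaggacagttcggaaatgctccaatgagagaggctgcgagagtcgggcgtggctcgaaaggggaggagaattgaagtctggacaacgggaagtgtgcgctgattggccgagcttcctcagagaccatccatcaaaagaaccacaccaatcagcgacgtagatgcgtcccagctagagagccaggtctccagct
In the Cdkn1a window shown the decamers began 73 and 51 bases before its start, in Mdm2 186, in Ccng1 185 and in Gadd45a 40 bases before it. A window at another annotated Cdkn1a start (chr17:29093519-29093818) held no decamer. The Gdf15 window shown holds neither motif. Windows were not searched beyond these bases.

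Gdf15 encodes a secreted stress cytokine of the TGF-beta superfamily and lies on chromosome 8 (70629393 to 70632456, GRCm38). It was at 107, 68.4 and 104 FPKM in LCN2 libraries, against 19.9, 54.4 and 33.0 FPKM in control libraries. The groups did not overlap, but LCN2 replicate 2 was the lowest treated library and control replicate 2 the highest control. Gdf15 averaged 93.2 ± 21.5 FPKM with LCN2 and 35.7 ± 17.4 FPKM in controls (SD, n = 3 each), and rose by 1.51 on the log2(FPKM + 1) scale (95% confidence interval 0.76 to 2.25, adjusted p = 0.020). Of the 10309 genes tested its log2 fold change ranked 11 from the top. Its call was lost without LCN2 replicate 1 (adjusted p = 0.080), LCN2 replicate 3 (adjusted p = 0.078) or control replicate 3 (adjusted p = 0.067).

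Gadd45a encodes a small protein induced by growth arrest and DNA damage, on chromosome 6 (67035096 to 67037457). It was at 43.4, 30.8 and 45.9 FPKM in LCN2 libraries, against 14.2, 22.8 and 16.7 FPKM in control libraries, so every treated library lay above every control. The means were 40.0 ± 8.09 FPKM with LCN2 and 17.9 ± 4.42 FPKM in controls, and the log2 fold change was 1.18 (95% confidence interval 0.76 to 1.61, adjusted p = 0.0097). Without LCN2 replicate 1 it was not called (adjusted p = 0.052). Exons of E230016M11Rik overlap it on the opposite strand, and it is not stated whether counting used strand.

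The shared death genes both encode BH3-only proteins, which neutralise anti-apoptotic BCL2 proteins. Pmaip1, the gene of NOXA (chromosome 18, 66458533 to 66465565), was at 109, 83.4 and 109 FPKM in LCN2 libraries, against 51.7, 68.7 and 57.6 FPKM in control libraries. It rose by 0.81 on the log2 scale (95% confidence interval 0.52 to 1.10, adjusted p = 0.0096), with means of 100.5 ± 14.8 FPKM with LCN2 and 59.3 ± 8.61 FPKM in controls. Pmaip1 stayed called whichever library was left out, with an adjusted p of at most 0.048. Bbc3, the gene of PUMA (chromosome 7, 16308393 to 16318205), was at 16.5, 13.8 and 18.5 FPKM in LCN2 libraries, against 8.63, 14.01 and 12.2 FPKM in control libraries. As deposited, control replicate 2 was above LCN2 replicate 2, and only after scaling did the groups separate. Bbc3 did not pass the test, with a log2 fold change of 0.53 (95% confidence interval 0.15 to 0.90, adjusted p = 0.054). It was called without LCN2 replicate 2 (adjusted p = 0.030) or control replicate 2 (adjusted p = 0.045).

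**Figure D1:**
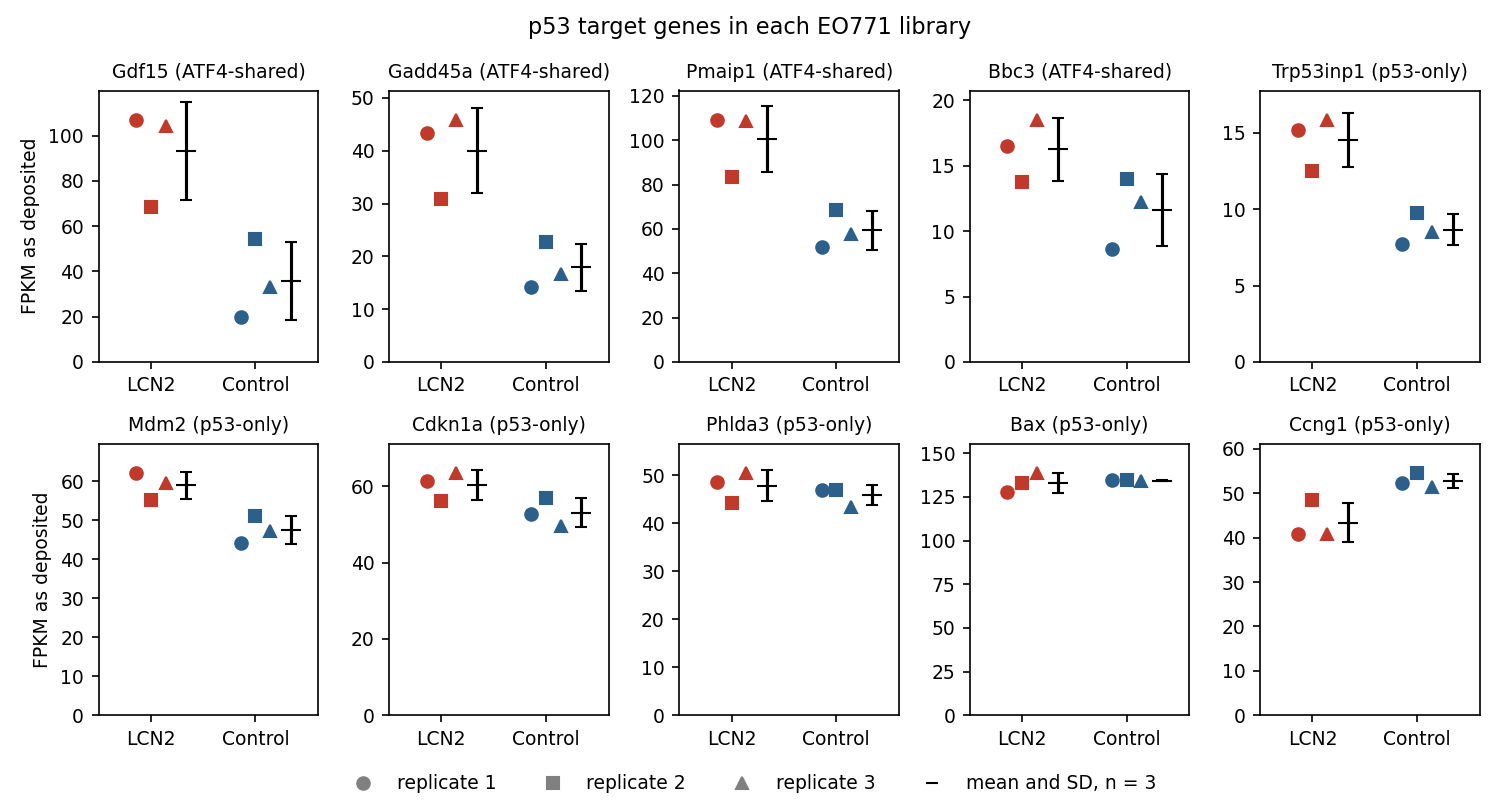
FPKM as deposited (vertical axis, from 0) of each gene in the LCN2 and Control libraries, with a marker per replicate and the mean and SD of each group (n = 3). Gdf15, Gadd45a, Pmaip1, Trp53inp1 and Mdm2 have every LCN2 library above every control, Ccng1 has every LCN2 library below, and Bbc3, Cdkn1a, Phlda3 and Bax overlap.

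Among the p53-only genes, Trp53inp1 rose most. It encodes a stress-induced protein that promotes p53 activity and autophagy, on chromosome 4 (11156431 to 11174379). Its level was 15.2, 12.5 and 15.9 FPKM in LCN2 libraries, against 7.72, 9.73 and 8.52 FPKM in control libraries, with no overlap. It averaged 14.5 ± 1.78 FPKM with LCN2 and 8.66 ± 1.01 FPKM in controls. The log2 fold change of 0.74 (95% confidence interval 0.51 to 0.98, adjusted p = 0.0065) lay above that of Bbc3, so the values of the shared and p53-only groups overlapped. Trp53inp1 was called whichever library was left out, with an adjusted p of at most 0.039.

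The feedback and arrest genes rose by less. Mdm2 (chromosome 10, 117688875 to 117710758) was at 62.2, 55.2 and 59.6 FPKM in LCN2 libraries, against 44.2, 51.2 and 47.2 FPKM in control libraries, again with no overlap. It rose by 0.37 on the log2 scale (95% confidence interval 0.23 to 0.51, adjusted p = 0.011), and without LCN2 replicate 1 the adjusted p was 0.053. Cdkn1a encodes the cyclin-dependent kinase inhibitor p21 (chromosome 17, 29090976 to 29100727). It was at 61.3, 56.0 and 63.5 FPKM in LCN2 libraries, against 52.6, 57.0 and 49.5 FPKM in control libraries. As deposited, control replicate 2 was above LCN2 replicate 2. Cdkn1a rose by 0.24 after scaling (95% confidence interval 0.10 to 0.39, adjusted p = 0.033), and was not called with values as deposited (0.18, adjusted p = 0.087) or with no filter on low values (adjusted p = 0.056). The call was also lost without LCN2 replicate 1, LCN2 replicate 3, control replicate 1 or control replicate 3 (adjusted p of 0.081 to 0.11). An exon of the annotated transcript AC167363.2 overlaps Cdkn1a on the opposite strand.

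Ccng1 moved the other way. It encodes cyclin G1, which recruits a phosphatase to MDM2 (chromosome 11, 40748552 to 40755311). Its level was 40.9, 48.4 and 40.7 FPKM in LCN2 libraries, against 52.4, 54.6 and 51.4 FPKM in control libraries, so every treated library lay below every control. It fell by 0.22 on the log2 scale (95% confidence interval -0.37 to -0.07, adjusted p = 0.047). The call was close to the threshold and held in 1 of the 6 fits that left out a library, that without LCN2 replicate 2. Without LCN2 replicate 1, LCN2 replicate 3, control replicate 1, control replicate 2 or control replicate 3 the adjusted p was between 0.086 and 0.16, and with no filter on low values, a filter at a mean of 0.1 FPKM or no variance trend it was between 0.051 and 0.075.

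Phlda3 and Bax did not pass the test. Phlda3, whose product restrains AKT signalling (chromosome 1, 135766119 to 135769136), was at 48.6, 44.2 and 50.5 FPKM in LCN2 libraries, against 47.0, 47.0 and 43.4 FPKM in control libraries. Its log2 fold change was 0.12 (95% confidence interval -0.03 to 0.27, adjusted p = 0.20), and it was called without LCN2 replicate 2 (0.18, adjusted p = 0.036). Bax encodes the pore-forming effector of mitochondrial apoptosis (chromosome 7, 45461697 to 45466898). It was at 128, 133 and 139 FPKM in LCN2 libraries, against 135, 135 and 134 FPKM in control libraries. The control libraries lay within the range of the treated ones, and the log2 fold change was 0.05 (95% confidence interval -0.06 to 0.16, adjusted p = 0.47), with the sign turned when values were not scaled. Exons of Bax overlap those of the predicted gene Gm45808 on the same strand.

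**Figure D2:**
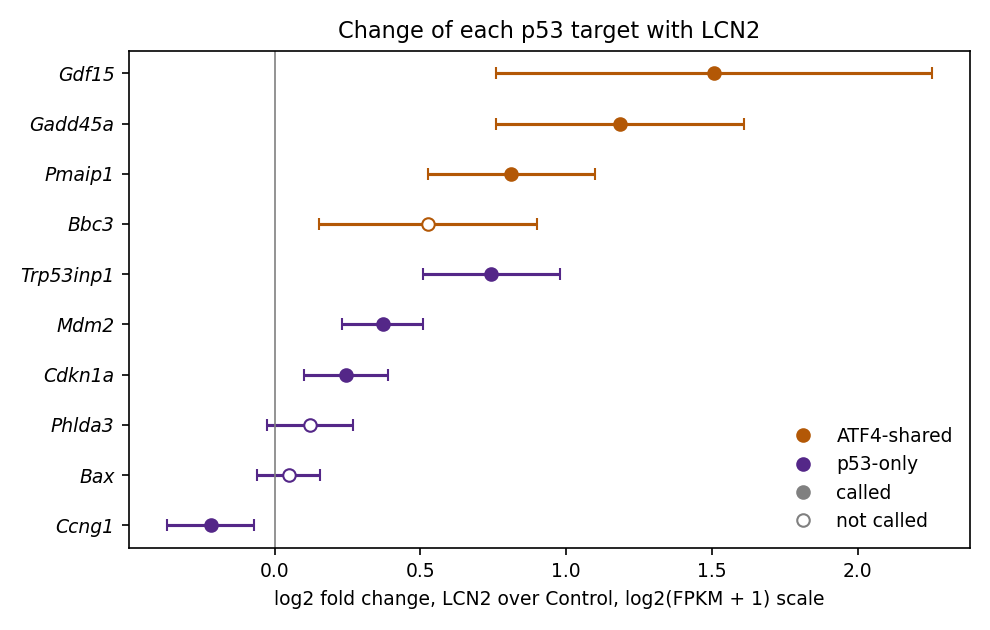
Log2 fold change of LCN2 over Control on the log2(FPKM + 1) scale for each gene (points) with its 95% confidence interval (bars), shared genes in orange above p53-only genes in purple, filled where called. The shared genes run between 0.53 and 1.51 and the p53-only genes between -0.22 and 0.74, so Bbc3 and Trp53inp1 lie in each other's range.

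Set side by side, the shared genes had larger changes than most of the p53-only genes. The median log2 fold change of the shared genes was 0.82 above that of the p53-only genes, and 0.79 above it when means were used. With Cdkn1a counted among the shared genes the difference was 0.69, and with only Gdf15 and Pmaip1 counted as shared it was 0.85. In each library, the mean of the shared genes minus that of the p53-only genes, both relative to the control mean on the log2(FPKM + 1) scale, was 0.91, 0.54 and 0.92 in LCN2 libraries, against -0.35, 0.31 and 0.04 in control libraries. The treated libraries thus lay above the controls, with control replicate 2 nearest to LCN2 replicate 2. No p is given for these summaries, because the genes were chosen with earlier results of these data known.

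The control libraries differed more from each other in the shared genes. The highest control was 2.74 times the lowest for Gdf15, and the smallest such ratio among shared genes was 1.33, for Pmaip1. For the p53-only genes this ratio ran between 1.00 for Bax and 1.26 for Trp53inp1. After scaling, control replicate 1 was the lowest control, control replicate 2 the highest control and LCN2 replicate 2 the lowest treated library for 4 of 4 shared genes. The same libraries held these places for Atf4 and Ddit3, and also for the p53-only genes Mdm2 and Trp53inp1. Over the p53-only genes the counts were 2, 3 and 4 of 6. Ccng1, which fell, had LCN2 replicate 2 as its highest treated library. The share of all tested genes with these places was not counted, so the order of libraries is not read as particular to the shared genes. Atf4 was at 182, 155 and 177 FPKM in LCN2 libraries, against 101, 148 and 124 FPKM in control libraries. Ddit3 was at 92.8, 59.5 and 86.2 FPKM in LCN2 libraries, against 28.1, 63.1 and 45.5 FPKM in control libraries, where control replicate 2 lay above LCN2 replicate 2. Their part in the changes of the shared genes was not tested. LCN2 replicate 2 reached between 46.0% and 62.6% of the mean difference of LCN2 replicates 1 and 3 from the controls for the shared genes, and between -1.75% (Phlda3) and 62.9% (Trp53inp1) for the p53-only genes. Among the p53-only genes that were called it was 62.9% for Trp53inp1, 62.0% for Mdm2, 41.7% for Cdkn1a and 25.5% for Ccng1.

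**Figure D3:**
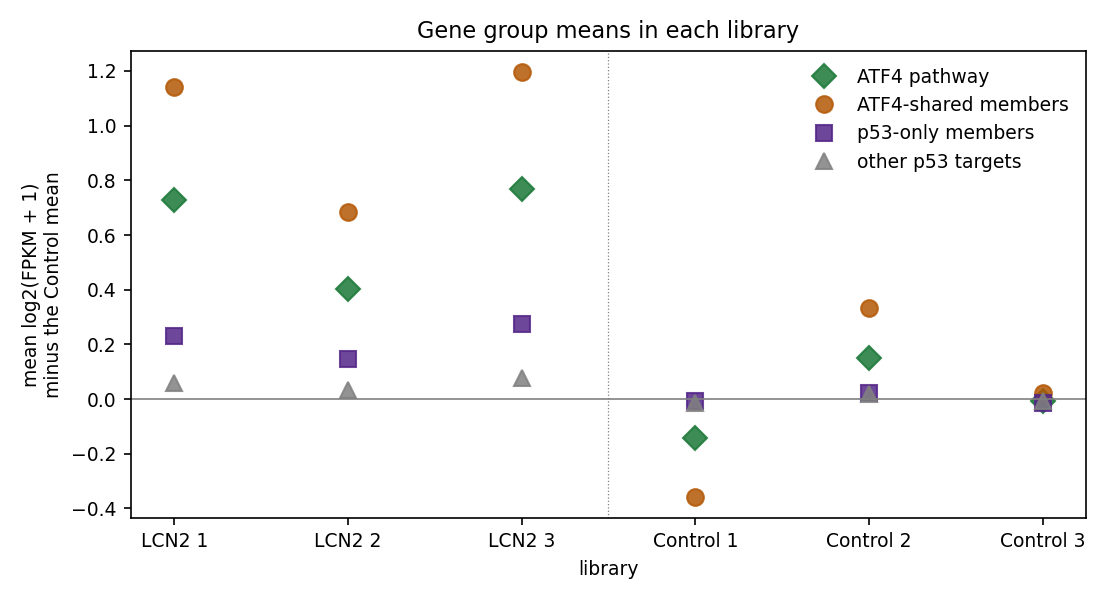
Mean log2(FPKM + 1) of 4 gene groups in each library (horizontal axis) minus the control mean (vertical axis), LCN2 libraries left of the dotted line. The shared genes were at 1.14, 0.68 and 1.20 in LCN2 libraries, against -0.36, 0.33 and 0.02 in control libraries, and the p53-only genes at 0.23, 0.15 and 0.27, against -0.01, 0.02 and -0.01.

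After TMM scaling, 8 of the 10 genes had no overlap between the groups, 7 higher and 1 lower. Over all tested genes 44.5% did not overlap, 23.0% higher and 21.6% lower.

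Genes whose profile over the 6 libraries was most like that of 3 of the targets were found by the root-mean-square difference of log2 values centred on each gene's mean. Predicted gene models (symbols of Gm and a number, or ending in Rik) were left out of this search. Nearest to Gdf15 were Trib3 (0.088), Txnip (0.14) and Atf3 (0.17), which encode a pseudokinase, an arrestin-like protein and a stress transcription factor. Nearest to Cdkn1a were Ppm1l (0.014), Tspan14 (0.019) and Xpot (0.020), and nearest to Mdm2 were Hif1a (0.017), Igsf5 (0.020) and Parp4 (0.022). Trib3 was at 60.9, 37.0 and 63.3 FPKM in LCN2 libraries, against 11.5, 29.8 and 16.3 FPKM in control libraries. Its order of libraries within the controls was that of Atf4, but also that of Mdm2, Trp53inp1 and Hif1a.

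Among the 38 other p53 targets tested there were 8 rises and 6 falls, beside 11.8% called higher and 9.73% called lower over all tested genes, where calls also lay in both directions. The list's median was -0.02 on the log2 scale. Cd82, a tetraspanin gene, rose by 0.65 on the log2 scale (adjusted p = 0.0045) and Rap2b, a small GTPase gene, by 0.54 (adjusted p = 0.014). The reductase gene Dcxr fell by 0.48 on the log2 scale (adjusted p = 0.0073). Cd82 and Dcxr were called whichever library was left out, while Rap2b was not without LCN2 replicate 1, LCN2 replicate 3 or control replicate 3 (adjusted p of up to 0.058). Leaving out LCN2 replicate 1, LCN2 replicate 3 or control replicate 3 gave 2 rises and 1 fall each. Control replicate 1 left out gave 5 rises and 2 falls, and control replicate 2 left out 8 and 3. With no filter on low values they were 6 and 2, and with no variance trend 8 and 3.

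Another list was drawn up as p53 targets also known from stress pathways, and control of its genes by p53 was not tested. It rose in 7 of 13 members and fell in 0, beside 11.8% called higher over all tested genes. Its median was 0.55, and 10 were higher and 0 lower at an unadjusted p under 0.05 in limma. The share of all tested genes at that threshold was not counted. Nupr1, a stress-induced chromatin protein gene, was higher by 2.46 (adjusted p = 0.0058), the eIF2alpha phosphatase subunit gene Ppp1r15a by 1.10 (adjusted p = 0.017), Trib3 by 1.56 (adjusted p = 0.018) and the antiproliferative gene Btg1 by 0.55 (adjusted p = 0.019). Nupr1 was called whichever library was left out. Ppp1r15a was not without LCN2 replicate 1, LCN2 replicate 3 or control replicate 3, nor were Trib3 and Btg1, which were also not called without control replicate 1 (adjusted p of up to 0.077). Leaving out LCN2 replicate 1 or LCN2 replicate 3 gave 1 rise, and leaving out control replicate 1 or control replicate 3 gave 2.

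The ATF4 pathway list, which holds none of the 10 genes, rose in 17 of 20 tested members and fell in 0, beside 11.8% called higher over all tested genes. The median was 0.63, and 19 were higher and 0 lower at an unadjusted p under 0.05 in limma. For all tested genes the share at that threshold was not counted. Its called members with the smallest adjusted p were the folate enzyme gene Aldh1l2 (1.03), the cysteine-forming enzyme gene Cth (1.29), the tRNA synthetase gene Wars (0.37) and the serine hydroxymethyltransferase gene Shmt2 (0.52), given as log2 fold changes. The first 3 of these were called whichever library was left out, and Shmt2 was not without LCN2 replicate 1 (adjusted p = 0.055). Atf4 rose by 0.54 (adjusted p = 0.021), but not without LCN2 replicate 1, LCN2 replicate 3 or control replicate 3 (adjusted p of up to 0.083), and Ddit3 did not pass (0.90, adjusted p = 0.051). Ddit3 was called with values as deposited (adjusted p = 0.049) and without LCN2 replicate 2 or control replicate 2. The list's rises numbered 3 when LCN2 replicate 1 was left out, 5 for LCN2 replicate 3, 11 for control replicate 1 and 4 for control replicate 3.

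The 18 regulators of p53 tested had 4 rises and 1 fall and a median of 0.07. Over all tested genes 21.5% were called, so the 5 calls are near that share and are no result about the regulators as a list. The checkpoint kinase gene Chek2 fell by 0.48 on the log2 scale, to 4.75 ± 0.328 FPKM with LCN2, against 7.30 ± 0.213 FPKM in controls (adjusted p = 0.0056), and was called whichever library was left out. Bcl6, a transcriptional repressor gene, rose by 0.85 (adjusted p = 0.012), and not without LCN2 replicate 1 (adjusted p = 0.055). The p53 ubiquitin ligase gene Cop1 (0.21, adjusted p = 0.036) and the acetyltransferase gene Kat5 (0.23, adjusted p = 0.044) both lost their calls with values as deposited, after scaling to column sums, with no filter on low values, and without LCN2 replicate 1, LCN2 replicate 3, control replicate 1 or control replicate 3. Cop1 was also not called without control replicate 2, nor Kat5 after quantile normalization or with no variance trend. With values as deposited, after scaling to column sums and with no filter on low values, 1 regulator rose, and as deposited 2 fell. The number of rises was 0 without LCN2 replicate 1 (4 at an unadjusted p under 0.05 in limma), 1 without LCN2 replicate 3, control replicate 1 or control replicate 3, and 2 without control replicate 2. In the fit without LCN2 replicate 1 the share of all genes at the unadjusted threshold was not counted, so the 4 are no result about the list.

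Genes that p21 represses through the DREAM complex, which shuts down cell cycle transcription, had negative log2 fold changes in 18 of 18 members, of which 6 passed the test. Over all tested genes 9.73% were called lower, and 5172 of 10309 had positive log2 fold changes. The spindle checkpoint gene Bub1b fell by 0.43 (adjusted p = 0.011), the mitotic kinase gene Melk by 0.59 (adjusted p = 0.021), the replication helicase gene Mcm5 by 0.33 (adjusted p = 0.024) and the mitotic kinase gene Aurka by 0.20 (adjusted p = 0.032), all on the log2 scale. The median was -0.15. Bub1b was not called without LCN2 replicate 1 (adjusted p = 0.053), and Melk, Mcm5 and Aurka were not without LCN2 replicate 1, LCN2 replicate 3, control replicate 1 or control replicate 3 (adjusted p of up to 0.11). The count of falls was 0 without LCN2 replicate 1 (6 at an unadjusted p under 0.05 in limma), 1 without LCN2 replicate 3, control replicate 1 or control replicate 3, and 12 without LCN2 replicate 2. The share of all genes at the unadjusted threshold in the fit without LCN2 replicate 1 was not counted, so the 6 are no result about the list. The count of falls was 3 with no variance trend.

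**Figure D4:**
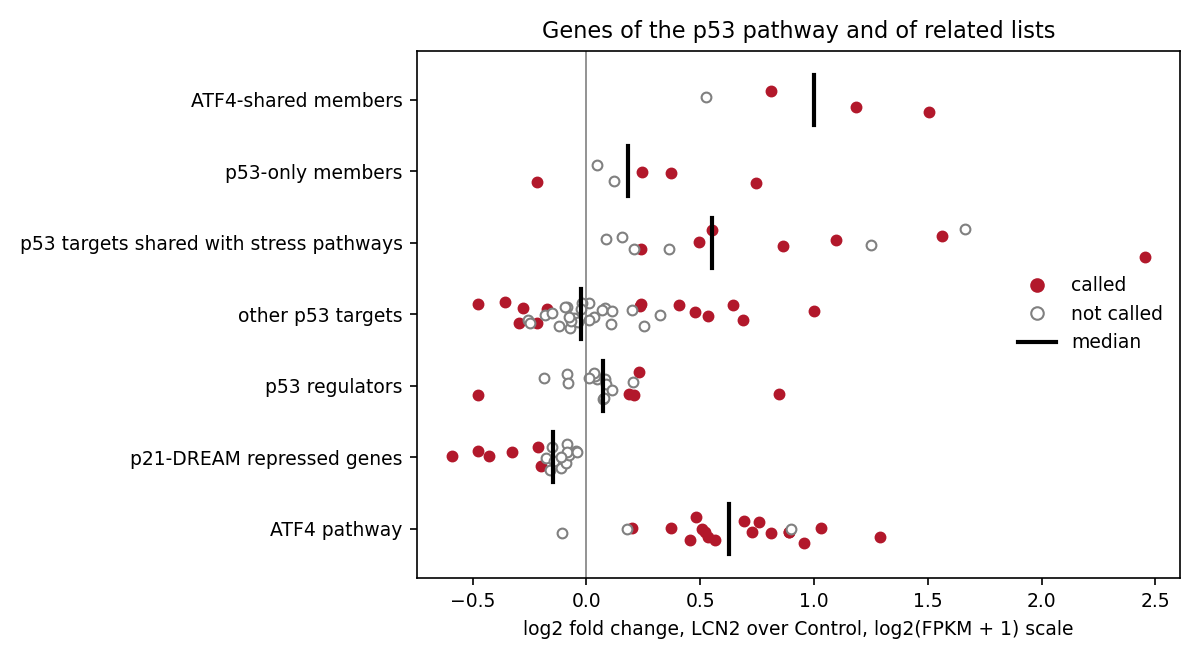
Log2 fold change of LCN2 over Control (horizontal axis) of each tested gene, by list, filled where called, with the median of each list as a black bar. Medians were 1.00 for the shared genes, 0.18 for the p53-only genes, 0.55 for stress-linked p53 targets, -0.02 for other p53 targets, 0.07 for p53 regulators, -0.15 for p21-DREAM repressed genes and 0.63 for the ATF4 pathway.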

How the data were processed

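Messenger RNA of 3 LCN2-treated and 3 control EO771 samples was sequenced from SMARTer libraries, per the labels' protocols. The authors deposited 1 value per gene and library in a table named as raw counts. Of 80285 values above 0, 0 were whole within 1e-09, and values multiplied by the longest transcript's length in kilobases summed to 1032628 to 1095179, so the deposited values were treated as FPKM, a unit inferred here. Per the submitters' processing notes the build was GRCm38. Aligner, quantifier and use of strand were not given in the sources used. Read depth is unknown, so no counting intervals are given.

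Values were scaled by unweighted TMM (trims 0.3 and 0.05) and tested as log2(FPKM + 1) with limma 3.58.1 in R 4.3.3, with a variance trend, for the 10309 genes whose mean reached 1 FPKM, LCN2 minus control. The pipeline was tested on simulated data. Group means ± SD are of deposited FPKM. A fold change on this scale understates the change of genes of low level. Gene positions are from GENCODE M21, where 19798 IDs were found and 34 were not.

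The members and lists were chosen with earlier results of these data known. All 10 targets are named, with up to 4 called members of each list by smallest adjusted p. The 3 nearest profiles to each of Gdf15, Cdkn1a and Mdm2 are named too, with predicted gene models left out. Atf4, Ddit3 and Trp53 were named in addition, and 1 gene that the rule names is not reported here. Alternatives covered scaling, pseudocount, filter, variance trend, replicate block, grouping and leaving out each library.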

Additional observations from a re-analysis of the deposited data

How the results depend on the processing

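Same-numbered LCN2 and control libraries did not deviate together (correlations across genes of -0.22, -0.26 and 0.0086 for replicates 1, 2 and 3). These values gave no sign that the numbers pair the samples, but with 3 libraries per group they cannot exclude pairing. With a replicate block 262 genes were called in place of 2216, 1 of the 10 targets (Trp53inp1) in place of 7, and 9 genes of the pathway lists in place of 49.

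Leaving out 1 library at a time gave between 268 and 3160 calls among all genes, between 2 and 9 among the targets and between 8 and 63 in the pathway lists. The difference between the medians of shared and p53-only genes lay between 0.69 and 0.92 in these fits. With values as deposited the log2 fold change of Bax was -0.015 (adjusted p = 0.84), the sole sign among the 10 targets to turn in any alternative. Of the 150 values of single targets under the alternatives, 121 kept direction and call, 25 lost the call and 3 gained it. Among the fits that left out 1 library, the lowest count over all genes came without LCN2 replicate 1 and the highest without LCN2 replicate 2. Read depth, and with it counting error at low levels, cannot be given.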
